A study of Mus musculus with 23 samples.

Results

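Motile cilia genes were followed through RNA sequencing of mouse cells that the submitters call ILC2s (group 2 innate lymphoid cells), which were grown in culture, transferred into mice with an ischemic stroke and recovered from blood or brain. Members were the rows of the deposited table whose symbol is Dnah, Dnai, Dnaaf or Cfap followed by a number, Rsph followed by a number and an optional letter, or one of Foxj1, Ccdc39, Ccdc40, Ccdc153, Tekt1, Spag6l and Hydin. The rule found 48 of 19945 genes, and no row carried a Dnai symbol. It used symbols and no measured value.

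The cells came from male mice of 8 to 10 weeks, CAG-GFP transgenic or wild type, that had been given IL-33 every 2 days for 7 days. All 23 libraries carry the genotype B6.Cg-Tg(CAG-GFP)Smoc, in which the broadly active CAG promoter drives the green fluorescent protein GFP. Lineage-negative CD25+ cells of bone marrow and spleen were separated on magnetic beads, kept for 14 days with IL-2 and IL-33 together with IL-7 and IL-15, gated on CD45+, Lin-, ST2+, KLRG1+ and CD127+ in a flow sorter, and given intravenously 6 hours after MCAO, the occlusion of the middle cerebral artery. The groups were cultured cells (5 libraries, without transfer), blood on day 1 (6 libraries), blood on day 5 (6 libraries) and brain on day 5 (6 libraries). The labels do not say how cells were isolated from blood and brain or whether each library came from another animal, so p-values measure only the spread between these libraries, which may be technical.

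A motile cilium beats by means of its axoneme, a ring of microtubule doublets around a central pair. Dynein motors sit on each doublet as outer and inner arms, radial spokes and the central apparatus steer them, a coiled-coil ruler and the nexin-dynein regulatory complex set their spacing and coupling, and further proteins line the inside of the doublets. In the brain this machinery is known from ependymal cells, the multiciliated lining of the ventricles, where the forkhead transcription factor Foxj1 switches on much of the programme. Lymphocytes are not known to build motile cilia.

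Libraries held 11606756 to 16935503 recovered reads in batch 1 (replicates 1 to 3, 12 libraries) and 27796934 to 58059558 in batch 2 (11 libraries), and both labelled batches hold all 4 groups. Blood day 1 replicates 2 and 6, brain replicate 2 and culture replicate 5 were treated as standing apart from the rest of their groups. No measure behind this choice is given here. Culture replicate 4 also departed from culture replicates 1 to 3 for some members, such as Dnah8. The 7 ILC2 markers Il1rl1, Klrg1, Il7r, Ptprc, Gata3, Rora and Il2ra made up 0.00655 to 0.0153% of the normalized total in brain and 0.195 to 0.271% in blood day 5, and none was without reads. Of the 7, 5 were lower in brain than in blood day 5, with Klrg1 at a mean of 9.40 against 10829, while Il1rl1 (56.1 against 125) and Rora (1049 against 1019) were not called. Against culture 4 were lower and 3, Il1rl1, Il7r and Rora, were higher. Markers of brain cell types were present in the same brain libraries. Choroid plexus epithelium (13 genes) took 1.56 to 7.95% of the total, oligodendrocytes (7 genes) 0.985 to 1.47%, microglia (7 genes) 0.487 to 1.26%, meningeal fibroblasts (6 genes) 0.133 to 0.580%, ependyma (12 genes) 0.130 to 0.468%, endothelium and mural cells (8 genes) 0.0561 to 0.415% and astrocytes (9 genes) 0.0950 to 0.270%. Neuron markers (7 genes) were at 0.000594 to 0.011%. These lists were read in blood too. In blood day 1 neuron markers reached 0.0206%, above every brain library. Oligodendrocyte markers reached 0.218% there, choroid plexus markers 0.197% and ependyma markers 0.114%. Apart from the neuron list, each list stayed below its lowest brain value in all blood libraries. No marker of these lists was at 0 in brain. Markers of other blood cells were read in the blood libraries. In blood day 5 erythroid markers (2 genes) took 0.265 to 3.69%, platelet markers (4 genes) 0.126 to 1.21% and B cell markers (4 genes) 0.178 to 0.429%. In blood day 1 they took 0.352 to 8.33%, 0.312 to 4.48% and 0.0441 to 0.267%. The part of such cells in the blood levels was not tested.

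The motile cilia genes were a brain signal in this series. Their summed normalized count, a level that adds genes of different length, was 54150 to 121700 in the 6 brain libraries, or 0.191 to 0.422% of the total. It was 5257 to 9345 in culture, 2808 to 3652 in blood day 1 and 2885 to 4220 in blood day 5, so no brain library overlapped another group. A mean of at least 100 was reached by 45 of the 48 members in brain, 9 in culture, 6 in blood day 1 and 7 in blood day 5. In brain at least 12164 of the 15268 genes tested below reached it too, so the brain count alone says little about the members. The share of all genes was not counted for the other groups, nor for genes without a read outside the brain. Cfap161, Cfap206, Cfap221 and Cfap58 had no read in any of the 17 libraries outside the brain, and Foxj1 had a single read. Between fewer ciliated cells and less RNA per cell, bulk libraries cannot tell apart, and the part of ependymal, choroid plexus or other brain cells in these levels was not tested.

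**Figure D1:**
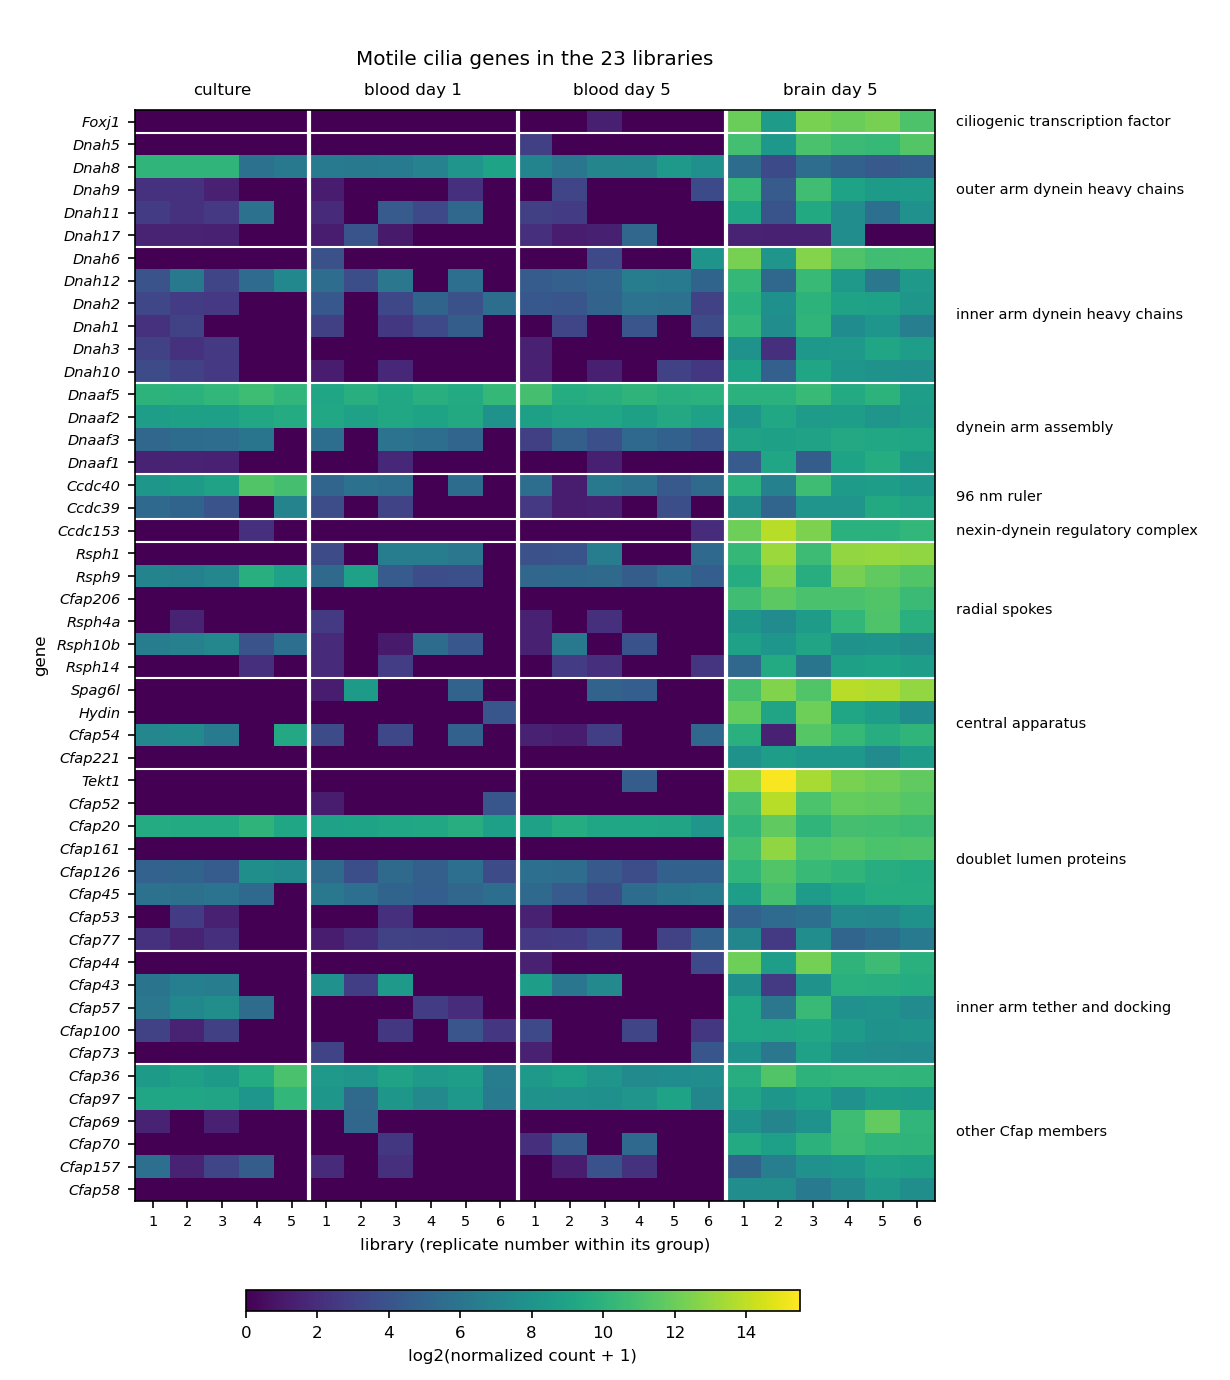
Heat map of log2(normalized count + 1) for the 48 motile cilia genes (rows, grouped by role) in the 23 libraries (columns, by group and replicate). Most genes are low (dark) in the 17 culture and blood libraries and high (bright) in the 6 brain libraries, while Dnah8 runs the other way and Dnaaf2, Dnaaf5, Cfap20, Cfap36 and Cfap97 are read in every group.

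Differences were tested in limma on log2(value + 1) with the batch in the model, over the 15268 genes that reached a value of 10 in at least 5 libraries, with Benjamini-Hochberg adjustment and a threshold of 0.05. Dnah17 did not reach that level and was not tested. Of the other 47 members, 29 passed only because of the brain libraries and so had to differ, and 18 passed on the other 17 libraries alone. Against blood day 5, 43 of 47 were higher in brain and 1 was lower, where 33.6% and 14.3% of all tested genes were called in these directions. The median difference of the members was 6.70 on the log2 scale (6.69 with genes absent from the lower group set at their bound), and that of all genes was 0.472. Against blood day 1, 44 were higher and 1 lower (37.3% and 14.1% of all genes), with a median of 7.10 (6.87 with bounds) beside 0.768. Against culture, 39 were higher and 1 lower (37.5% and 11.7% of all genes), with a median of 6.61 (5.87 with bounds) beside 0.67. These comparisons share the 6 brain libraries. In 31 of the 47 members all brain libraries lay above all 17 others, which 16.1% of the tested genes did.

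Because the filter favours a brain excess in the 29, the 18 members that passed without the brain libraries were also counted, beside the 12756 genes that passed in that way. Of the 18, 14 were higher than in blood day 5 and 1 lower (22.5% and 17.1% of those genes), with a median of 4.22 beside 0.15. Against blood day 1, 15 were higher and 1 lower (26.8% and 16.9%), and against culture 10 and 1 (27.5% and 13.9%). All brain libraries lay above all others in 7 of the 18, and in 7.63% of the genes.

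The size of the brain excess among all genes depended on the scaling. With TMM scaling (trimmed mean of M values) the median of all genes against blood day 5 moved from 0.472 to 0.072, and the calls from 5123 higher and 2183 lower to 4402 higher and 3146 lower. Against blood day 1 they moved from 5692 and 2155 to 4844 and 3149, and against culture from 5733 and 1780 to 5042 and 2615. The members' calls hardly followed: TMM left 42 of the 43 members higher than in blood day 5 in place and added Dnaaf2 to the lower ones.

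**Figure D2:**
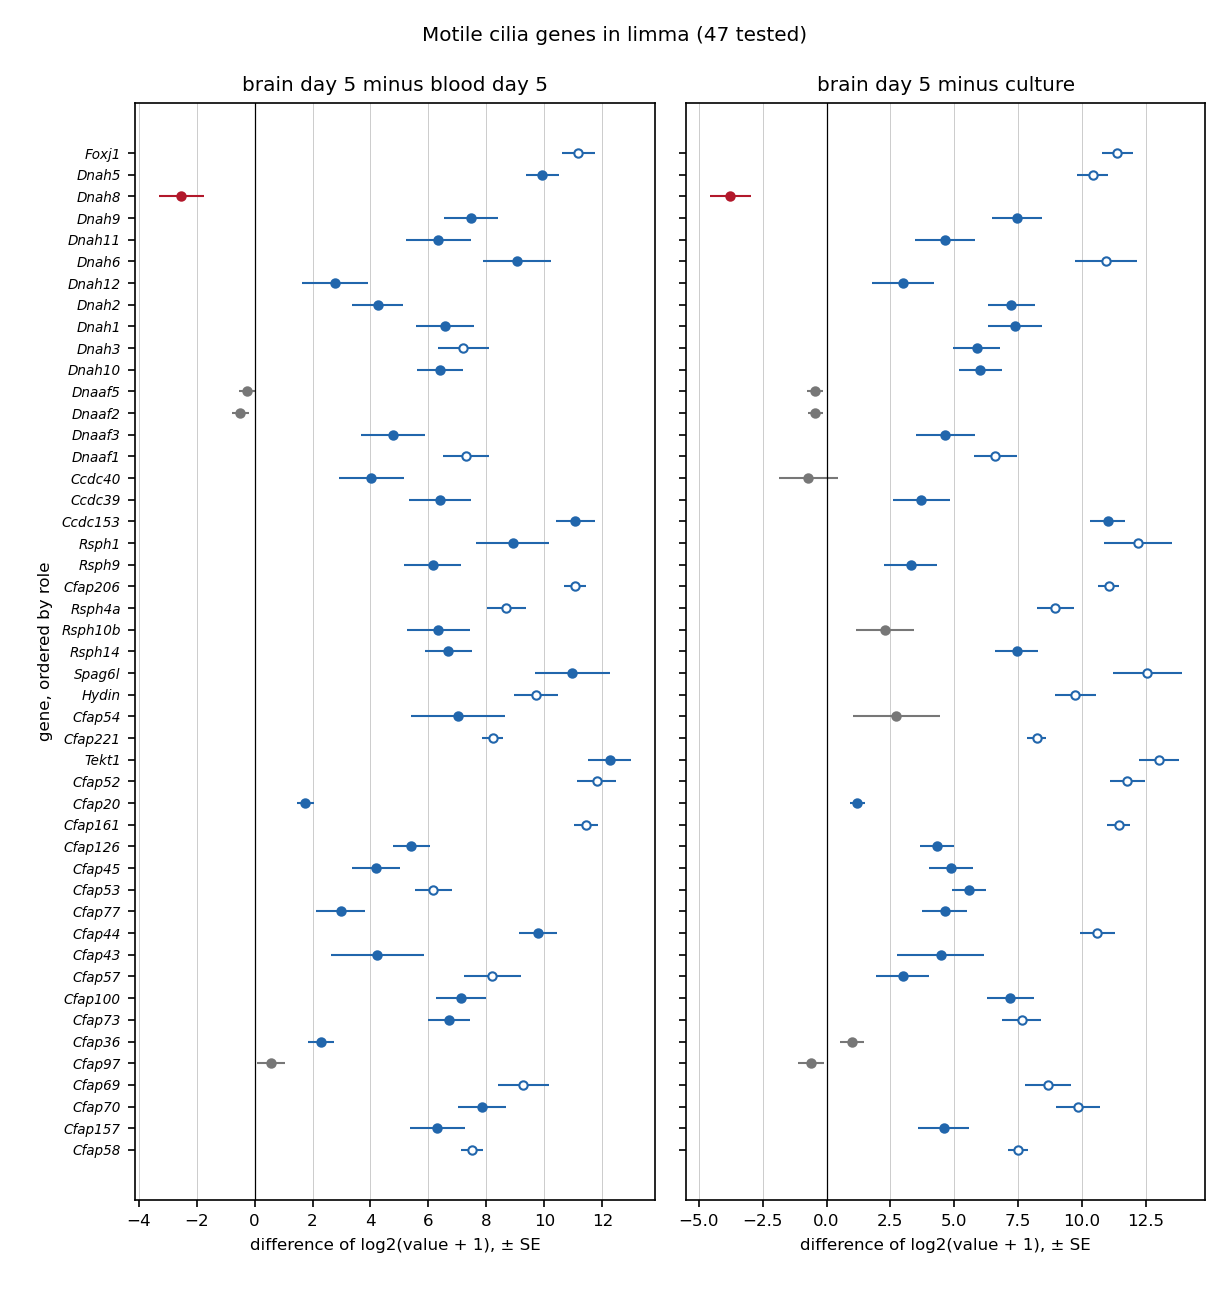
Difference of log2(value + 1) between brain day 5 and blood day 5 (left) or culture (right) for the 47 tested members, as points with the limma standard error; blue is higher in brain, red lower and grey not called, and open points mark genes with 3 reads or fewer in the other group, whose difference depends on the pseudocount. Called members above 0 lie between 1.76 and 12.25 on the left and between 1.21 and 13.02 on the right, and Dnah8 alone is called below 0.

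Promoters were searched for motifs of the factors known to act with Foxj1. RFX factors bind the X-box, which was searched by its consensus letters on both strands, and its shorter core GTTGCC, which can be part of an X-box match. RefSeq promoters of GRCm38.p6, 250 bases before to 50 after a start, were at hand for 37 members with 41 promoters. The X-box pattern was found in 8 of the 41 (19.5%), against 714 of all 32851 promoters (2.17%). The core was in 12 (29.3%) against 12.5%, and the forkhead motif TGTTTAC in 3 (7.32%) against 3.65%. These are matches of letters and not measured binding. The X-box matches lay in Cfap206, Cfap44, Cfap45, Dnaaf2, Dnaaf5, Dnah17, Hydin and Spag6l. The 4 shown here lie wholly upstream of the gene and cover 3 members high only in brain and 1, Dnaaf2, with similar levels in all groups. They are written along the gene's strand with the match in capitals, and each match reads as the motif on the opposite strand.
Cfap206, chr4:34730207-34730259, minus strand: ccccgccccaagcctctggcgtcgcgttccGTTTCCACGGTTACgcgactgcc
Cfap44, chr16:44394742-44394795, plus strand: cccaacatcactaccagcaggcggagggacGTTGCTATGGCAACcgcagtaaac
Hydin, chr8:110266926-110266976, plus strand: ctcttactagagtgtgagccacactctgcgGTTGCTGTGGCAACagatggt
Dnaaf2, chr12:69198430-69198476, minus strand: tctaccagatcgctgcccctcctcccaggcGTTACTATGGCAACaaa
In Cfap44, Hydin and Dnaaf2 the match ends in the core, read on the opposite strand, and in Cfap206 it does not. Matches began 17 to 27 bases before the RefSeq start in these members. Of these 4 members Cfap206 had no read outside the brain, Cfap44 had 18 and Hydin 22, and Dnaaf2 was read in every library. Of the 4 members with an X-box match that are not shown, Cfap45 and Spag6l were called higher in brain than in each other group. Dnaaf5 was not, and Dnah17 was not tested.

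Foxj1 (chr11:116330704-116335399, mm10), the ciliogenic transcription factor, stood at 361, 4139 and 5343 normalized counts in brain (lowest, median, highest). Its only read outside the brain was in blood day 5 replicate 3, a value of 1.58. All 6 brain libraries were far above all others, and brain replicate 2 was the low one. The ratio of read rates of brain to blood day 5 was 31639 (95% counting interval 5678 to 1249701). Brain was at least 960-fold higher than blood day 1 (592 in batch 1) and at least 888-fold higher than culture (625 in batch 1), against a floor of 3 reads per library. Such floors and intervals cover counting error only. In limma all 3 differences passed the threshold, with Benjamini-Hochberg adjusted p of 1.9e-13, 1.43e-13 and 3.53e-13. Foxj1 passed the filter only with the brain libraries and so had to differ, and these p-values add no separate support. The same limit applies below to Dnah5, Dnah9, Dnah11, Dnah6, Ccdc153, Spag6l, Hydin, Tekt1, Cfap52 and Cfap44, among others.

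Heavy chains of the outer dynein arm, the large ATP-driven motors, split by gene. Dnah5 (chr15:28203752-28472052), the heavy chain of respiratory and ependymal outer arms, was at 307, 1697 and 2653 in brain. It had 4 reads outside the brain, all in blood day 5 replicate 1 (6.62). Its log2 difference to blood day 5 was 9.93 ± 0.58 (SE; limma adjusted p = 1.6e-12), and brain was at least 405-fold higher than culture (270 in batch 1). Dnah9 and Dnah11, which partner Dnah5 along different stretches of the cilium, also rose against all 3 groups, Dnah9 by 7.46 ± 0.94 and Dnah11 by 6.34 ± 1.12 against blood day 5. Dnah11 reached 56.9 in culture replicate 4, above the lowest brain library (15.3).

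Dnah8 (chr17:30624354-30877365), which is known as an outer arm heavy chain of sperm, was the one member called lower in brain in all 3 comparisons. Culture held 1116, 1118, 1126, 56.2 and 74.6 in replicates 1 to 5, so the batch 1 cultures were far above those of batch 2. Blood day 1 had 77.4, 98.1 and 511, blood day 5 had 65.6, 134 and 331, and brain had 10.2, 25.6 and 44.8 (lowest, median, highest). The brain libraries overlapped no other group. The differences were -2.52 ± 0.78 against blood day 5 (limma adjusted p = 0.00947), -2.45 ± 0.78 against blood day 1 (0.011) and -3.77 ± 0.82 against culture (0.000447). Within batches the difference to culture was -5.31 in batch 1 and -1.45 in batch 2, where it was not called alone (0.197), and that to blood day 1 was not called in batch 1 alone (-1.51, 0.0913). Dnah17, another sperm heavy chain, was at most 33.4 in the 17 other libraries and stood at 194 in brain replicate 4 and at most 1.87 in the other brain libraries.

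Inner arm heavy chains, which shape the bend of the beat, were all called higher in brain: 6 of 6 against each group. Of all tested genes 33.6%, 37.3% and 37.5% were called higher than in blood day 5, blood day 1 and culture. Dnah1, Dnah3, Dnah6 and Dnah10 passed the filter only with the brain libraries, which favours such calls. Dnah6 (chr6:73017606-73221651) was at 266, 2090 and 6251 in brain and had no read in culture. One blood day 5 library, replicate 6, held 255, just under the lowest brain value, and the other blood libraries held at most 13.1. The difference to blood day 5 was 9.06 ± 1.16 (limma adjusted p = 6.85e-07). Dnah12 (chr14:26693274-26891703) was the weakest of these genes. It stood at 37.5, 329 and 1367 in brain, 21.5, 31.6 and 92 in blood day 5 and 0, 29.1 and 70.4 in blood day 1. Culture held 14.4, 74.9, 8.25, 41.3 and 147, so brain overlapped culture and both blood groups. Its difference to blood day 5, 2.78 ± 1.14, had a limma adjusted p of 0.0494 and lost its call in 16 of 26 alternatives, where p ran from 0.00594 to 0.443. Against culture the difference of 2.99 ± 1.20 (0.0431) lost its call in 14 of 25 (0.0031 to 0.57). The remaining 4 chains, Dnah1, Dnah2, Dnah3 and Dnah10, differed from blood day 5 by 4.25 to 7.21.

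Assembly factors load dynein arms together in the cytoplasm before they enter the cilium, and here they fell into 2 pairs. Dnaaf5 (chr5:139150223-139186510) was read at like levels in all groups: 1027, 966, 1207, 1627 and 1161 in culture, 577, 779 and 1293 in blood day 1, 775, 903 and 1922 in blood day 5 and 406, 945 and 1446 in brain. Dnaaf2 (chr12:69189087-69198429), a co-chaperone for heavy chains whose promoter is printed above, was at 403, 442, 424, 611 and 728 in culture and at 272, 383 and 605 in brain. Both blood groups lay between 252 and 688 for Dnaaf2. Every group overlapped the others for both genes. Brain minus blood day 5 was -0.25 ± 0.29 for Dnaaf5 and -0.49 ± 0.29 for Dnaaf2 (limma adjusted p = 0.513 and 0.175). With TMM scaling Dnaaf2 was called lower in brain against all 3 groups and Dnaaf5 against culture. Dnaaf3 and Dnaaf1 rose instead, by 4.78 ± 1.10 against blood day 5 for Dnaaf3. Dnaaf1 had 6 reads in all 17 other libraries and 20.5 to 759 normalized counts in brain. Dnaaf2 shares up to 1107 exonic bases with another gene and Dnaaf1 584, and the authors' strand setting is not given, so such reads cannot be told apart.

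Ccdc40 (chr11:119228572-119265238) and Ccdc39 (chr3:33812362-33844310) form the ruler that spaces arms and spokes along the doublet. Ccdc40 was abundant in culture, at 296, 352, 494, 2473 and 1924, and in brain, at 112, 394 and 1646. It was at 0, 38.0 and 55.7 in blood day 1 and 1.40, 44.3 and 77.4 in blood day 5. Brain and culture overlapped, while both lay above all 12 blood libraries. Brain exceeded blood day 5 by 4.03 ± 1.11 (limma adjusted p = 0.0043) and did not differ from culture beyond the spread (-0.71 ± 1.17, 0.653). Within batches that difference to culture was 0.59 in batch 1 and -2.60 in batch 2. Ccdc39 was lower, at 37.9, 31.1, 14.9, 0 and 119 in culture, at most 12.4 in blood and 32.4, 270 and 682 in brain. Brain replicate 2, at 32.4, lay inside the culture range and the other 5 brain libraries lay above it. Ccdc39 rose by 6.40 ± 1.06 against blood day 5 (2.16e-05) and by 3.71 ± 1.11 against culture (0.00766). Its call against culture was lost in 2 of 25 alternatives, edgeR and batch 1 alone (adjusted p 0.000174 to 0.161). The call of Ccdc40 against blood day 5 was lost in limma on batch 2 alone (0.0734). Ccdc39 has a further limit. It overlaps Ttc14 on the other strand over 1256 exonic bases.

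Ccdc153 (chr9:44240676-44247306), a subunit of the nexin-dynein regulatory complex, had 10 reads outside the brain, 5 in culture replicate 4 (3.39) and 5 in blood day 5 replicate 6 (2.87). Brain held 4338, 14649 and 5479 in replicates 1 to 3 and 958, 937 and 1210 in replicates 4 to 6. No library overlapped between brain and the rest, and the 3 libraries of batch 1 were above those of batch 2. The rise was 11.07 ± 0.66 against blood day 5 (limma adjusted p = 2.4e-12), 12.78 in batch 1 and 9.36 in batch 2, and at least 1236-fold against blood day 1 (557 in batch 2).

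Radial spokes carry signals from the central pair to the arms, and all 6 members were called higher in brain than in either blood group. Of all tested genes 33.6% were called higher than in blood day 5 and 37.3% than in blood day 1. Cfap206, Rsph4a and Rsph14 passed the filter only with the brain libraries, which favours such calls. Rsph1 (chr17:31255019-31277383), a spoke head protein, stood at 1289, 7993 and 9094 in brain. It had no read in culture and at most 92.4 in blood. Brain was at least 1516-fold higher than culture (755 in batch 1) and 8.91 ± 1.26 above blood day 5 (limma adjusted p = 2.93e-06). Rsph9 (chr17:46122035-46144216), another head protein, was read in culture too, at 125, 113, 145, 867 and 468. Blood day 1 had 0, 16.9 and 477, blood day 5 had 23, 34.7 and 41.3, and brain had 783, 2969 and 5564. Culture replicate 4, at 867, lay inside the brain range and no blood library did. Rsph9 was higher in brain by 6.14 ± 0.98 against blood day 5 (1.34e-05) and 3.29 ± 1.03 against culture (0.0102). Cfap206, with the X-box printed above, ranged narrowly over 1512 to 3076 in brain with no read elsewhere, at least 715-fold over blood day 5 (495 in batch 1). Rsph10b had 14.9 to 142 in culture and did not pass against it (2.28 ± 1.14, 0.105).

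Members of the central apparatus were led by Spag6l (chr16:16753016-16829456), a scaffold of the central pair. It stood at 2064, 7091 and 14602 in brain, 0, 0.654 and 341 in blood day 1, 0, 0 and 30.01 in blood day 5 and 0 in all cultures. No group overlapped brain. It rose by 10.96 ± 1.29 against blood day 5 (limma adjusted p = 1.97e-07) and at least 1923-fold against culture (665 in batch 1). Its paralog Spag6 was at most 6.56 in every library, and how the authors' counting shared reads between the copies is not known. Hydin (chr8:110266977-110610253), named for the hydrocephalus of its mouse mutant, had 3594, 537 and 4280 in brain replicates 1 to 3 and 553, 387 and 184 in replicates 4 to 6. A single other library, blood day 1 replicate 6, held reads (16.5). Brain was at least 526-fold higher than blood day 5 (265 in batch 2) and at least 395-fold higher than culture (176 in batch 2), with limma adjusted p of 3.13e-10 and 6.45e-10. Cfap221 had no read outside the brain, and Cfap54 did not pass against culture (2.73 ± 1.70, 0.198), where it reached 666.

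Proteins inside the doublet gave the highest single level. Tekt1 (chr11:72344722-72362442), a tektin filament protein, stood at 8418, 41860 and 11525 in brain replicates 1 to 3 and 5420, 4284 and 3374 in replicates 4 to 6. One blood day 5 library held 22.6 and no other library outside the brain held a read. The excess was 12.25 ± 0.74 over blood day 5 (limma adjusted p = 2.93e-12), and at least 3356-fold over blood day 1 (2344 in batch 2). Cfap52 (chr11:67924806-67965651) was at 1844, 3051 and 14813 in brain, at most 16.5 in blood day 1 and without reads in blood day 5 and culture, at least 1580-fold under brain in blood day 5 (1356 in batch 1). It rose with Cfap161, Cfap126, Cfap45, Cfap53 and Cfap77, and Cfap77 was the least abundant of these in brain (5.11 to 189). Cfap20, which is also part of basal bodies, was read everywhere, at 266 to 1066 in the 17 other libraries and 1124 to 3333 in brain. Its rise was the smallest called against blood day 5, 1.76 ± 0.29 (1.73e-05).

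Tethers and docking factors of the inner arms included Cfap44, whose promoter carries the X-box shown above, and its partner Cfap43. Cfap44 (chr16:44394796-44482428) had 4317, 412 and 4942 in brain replicates 1 to 3 and 1094, 1564 and 911 in replicates 4 to 6. Blood day 5 replicates 1 and 6 held 1.65 and 9.75, and the other 15 libraries held none. Cfap44 rose by 9.79 ± 0.65 against blood day 5 (limma adjusted p = 1.6e-11).
Cfap43 (chr19:47736857-47919287) behaved differently by batch. In batch 1 it was read in every library: 61.4, 100 and 94.1 in culture, 232, 6.19 and 330 in blood day 1, 394, 65.6 and 156 in blood day 5 and 206, 5.11 and 243 in brain. In batch 2 it had no read in any culture or blood library and 913, 871 and 766 in brain. The difference of brain to blood day 5 was thus -1.25 in batch 1 and 9.73 in batch 2. It was the one member for which limma called the 2 batches' differences unlike, by 10.98 ± 1.87 (adjusted p = 0.0042), where 0.589% of all genes were called larger in batch 2 and 0.465% larger in batch 1. Over both batches its difference of 4.24 ± 1.61 passed (0.0334) but lost its call in 9 of 26 alternatives (6.78e-07 to 0.605). With a pseudocount of 5 the batch difference was called for 4 members (with Ccdc153, Rsph4a and Cfap53), and without brain replicate 2 for 2 (with Dnaaf1).

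Among the other Cfap members, Cfap36 and Cfap97 were read in every group. Cfap36 (chr11:29221532-29247409) had 347, 455, 342, 741 and 2085 in culture, 92.1, 324.5 and 495 in blood day 1, 166, 231 and 426 in blood day 5 and 790, 1138 and 2551 in brain. Brain lay above both blood groups and overlapped culture. It rose by 2.29 ± 0.45 against blood day 5 (limma adjusted p = 0.000178), and the difference to culture was 1.00 ± 0.48 (0.0869). Cfap97 (chr8:46151771-46195590) had 545, 579, 530, 283 and 1215 in culture, 40.2, 224 and 311 in blood day 1, 139, 237 and 508 in blood day 5 and 231, 394 and 531 in brain. All groups overlapped, and brain differed from blood day 5 by 0.56 ± 0.49 (0.377). The call against blood day 1 (1.25 ± 0.49, 0.0376) was lost in 15 of 26 alternatives (0.0182 to 0.406), and without blood day 1 replicate 2 the difference was 0.84 (0.11). Cfap58, Cfap69, Cfap70 and Cfap157 each rose against all 3 groups.

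**Figure D3:**
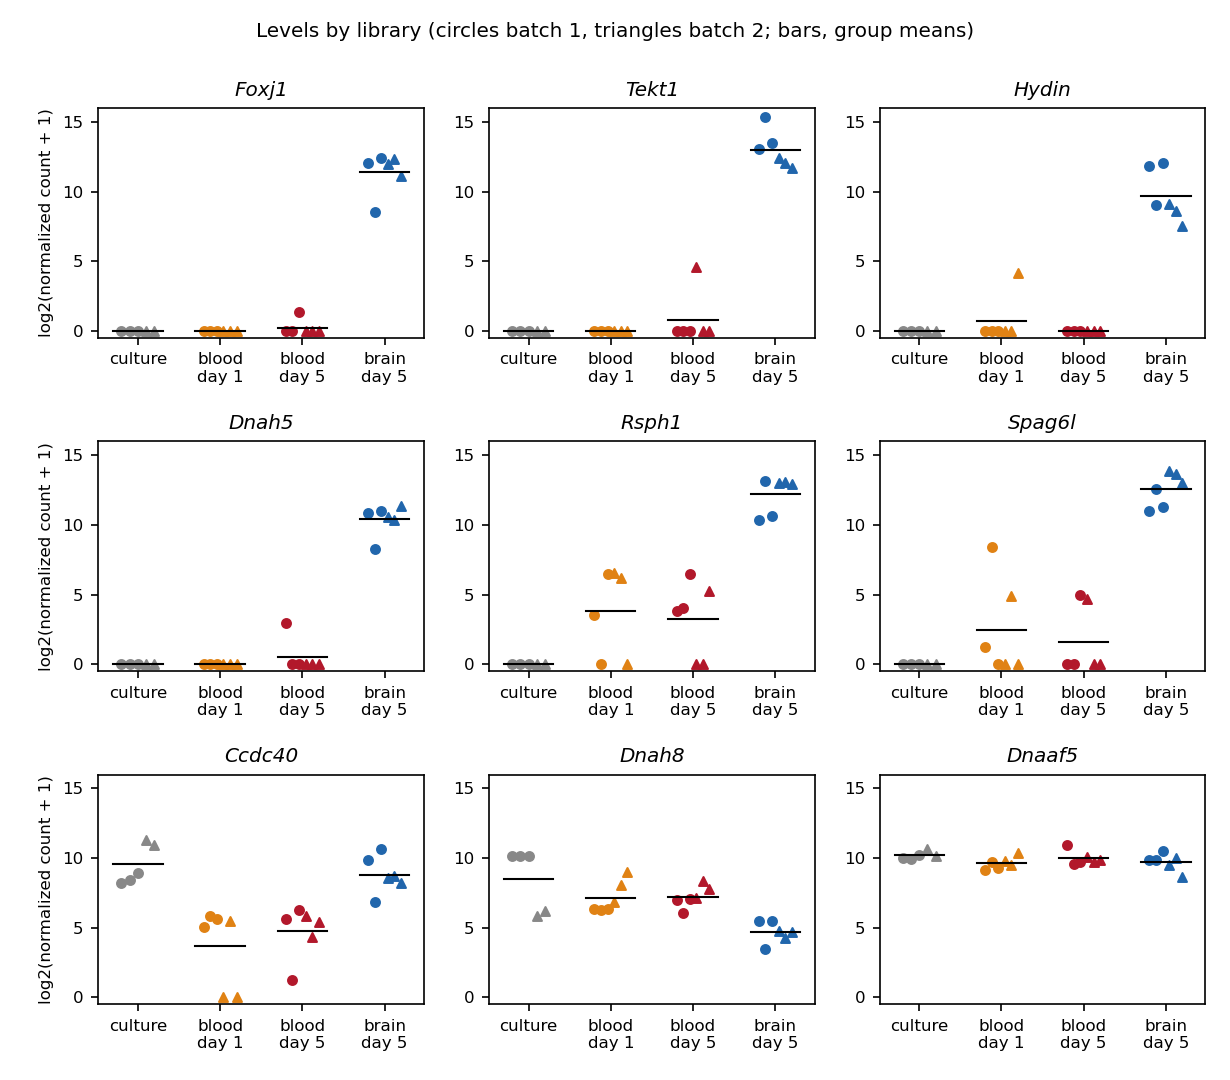
log2(normalized count + 1) of 9 members in each library, by group; circles are batch 1, triangles batch 2 and bars the group means. Foxj1, Tekt1, Hydin, Dnah5, Rsph1 and Spag6l separate brain from the other groups, Ccdc40 is high in culture and brain, Dnah8 is lowest in brain, and Dnaaf5 overlaps in all groups.

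Per kilobase of exon, the mean brain level was highest for Tekt1 (7694 normalized counts per kb), Rsph1 (4441), Ccdc153 (2257), Cfap52 (2059), Rsph9 (1902), Spag6l (1695) and Foxj1 (1361). Brain replicate 2 weighed on this order. Without it the means were 4072 for Tekt1, 4003 for Rsph1, 1772 for Spag6l, 1606 for Foxj1, 1588 for Rsph9, 1269 for Ccdc153 and 1194 for Cfap52, so Foxj1 moved from place 7 to 4 and Ccdc153 from place 3 to 6. By the median of the 6 libraries Rsph1 (5826) came before Tekt1 (4266). The same 7 genes held the first 7 places each way, and their order among themselves is not settled: the brain SD of Tekt1 was 14700 around a mean of 12480 normalized counts, and that of Ccdc153 was 5291 around 4595. Outer and inner arm heavy chains lay lower, with means from 19.1 per kb for Dnah10 to 219 for Dnah6, and Dnah17 (2.06) and Dnah8 (1.04) closed the order.

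Brain libraries differed among themselves, and the differences ran with gene length. Brain replicate 2 had the highest summed level, 121700, and was highest for short members such as Tekt1, Cfap52 and Ccdc153 while it was lowest for long ones such as Dnah9 (20.5, against at least 343 in the others) and Dnah3 (3.41, against at least 245). Among 45 members with a brain mean of at least 100, the log2 difference of replicate 2 to the mean of the other 5 had a Spearman coefficient of -0.662 with exonic length, and over 12164 genes it was -0.528; these are descriptions across genes of the same libraries. Replicate 2 lay below the mean of the other 5 for all 15 members over 7 kb. The median was -3.46 (all genes over 7 kb, -1.63). It was not below each single library: Hydin held 537 there, above replicates 5 and 6 (387 and 184). Of the 15 members up to 3 kb, 10 lay above that mean, with a median of 1.16 (all genes up to 3 kb, 0.774). The short members below it were Foxj1 (2.62 kb, -3.48), Cfap73 (-1.78), Cfap53 (-1.15), Cfap157 (-1.09) and Dnaaf3 (-0.28). Members over 7 kb gave 1.82% of the summed level in replicate 2 and 16.9 to 38.1% in the other brain libraries. The 3 libraries of batch 2 set against replicates 1 and 3 showed a coefficient of -0.382 in the members and -0.423 in all genes. RNA integrity was not measured in the sources used here, and its part was not tested.

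**Figure D4:**
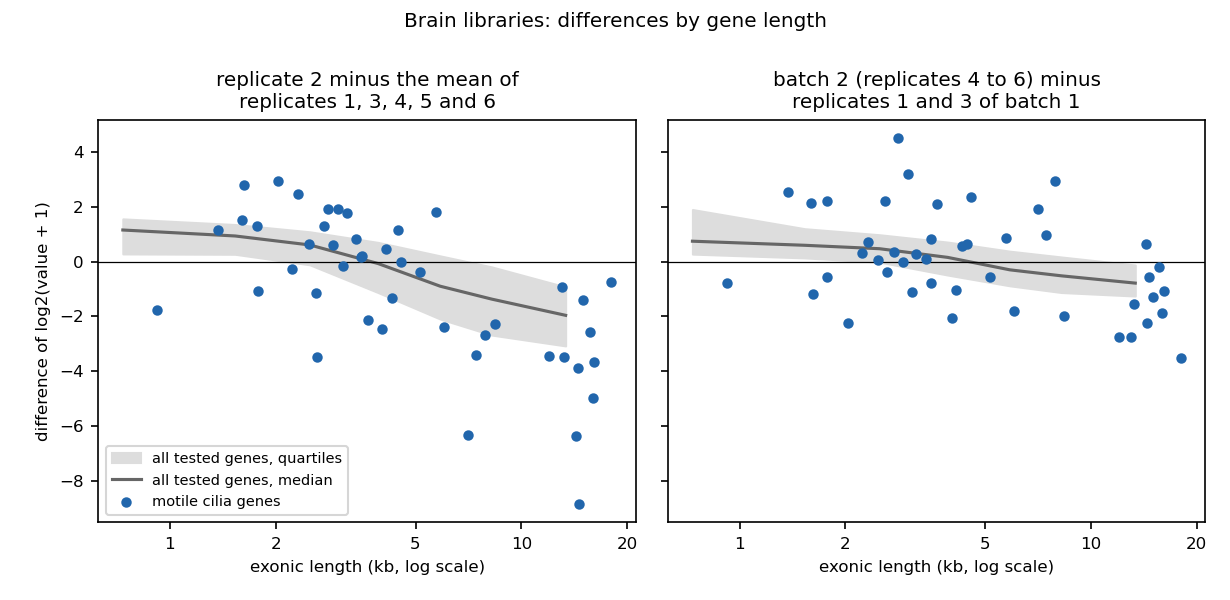
Log2 difference between brain libraries against exonic length (log axis) for 45 members (points), beside the median and quartiles of all genes (line and band); left, replicate 2 minus the mean of the other 5, right, batch 2 minus replicates 1 and 3. In the left panel every member over 7 kb lies below 0, and the slope of all genes is shared by the members in both panels.

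Without brain replicate 2 the counts were 43, 44 and 40 members higher and 1 lower against blood day 5, blood day 1 and culture. Without the 4 libraries that stood apart they were 43 and 2, 43 and 2, and 41 and 1. The median difference to blood day 5, blood day 1 and culture was 6.70, 7.10 and 6.61 with all libraries, 7.06, 7.40 and 7.05 without replicate 2, and 7.08, 6.88 and 6.69 without the 4. Single members moved either way without replicate 2: against blood day 5 Foxj1 went from 11.17 to 11.77 and Tekt1 from 12.25 to 11.77. Choroid plexus markers were also highest in replicate 2 (7.95% of the total) and lowest in replicate 6 (1.56%), the brain library with the lowest summed member level (54150). The ependyma list, of which Foxj1 and Ccdc153 are members, was at 0.468% in replicate 2 and 0.130% in replicate 1. The part of these markers in the members' differences was not tested.

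**Figure D5:**
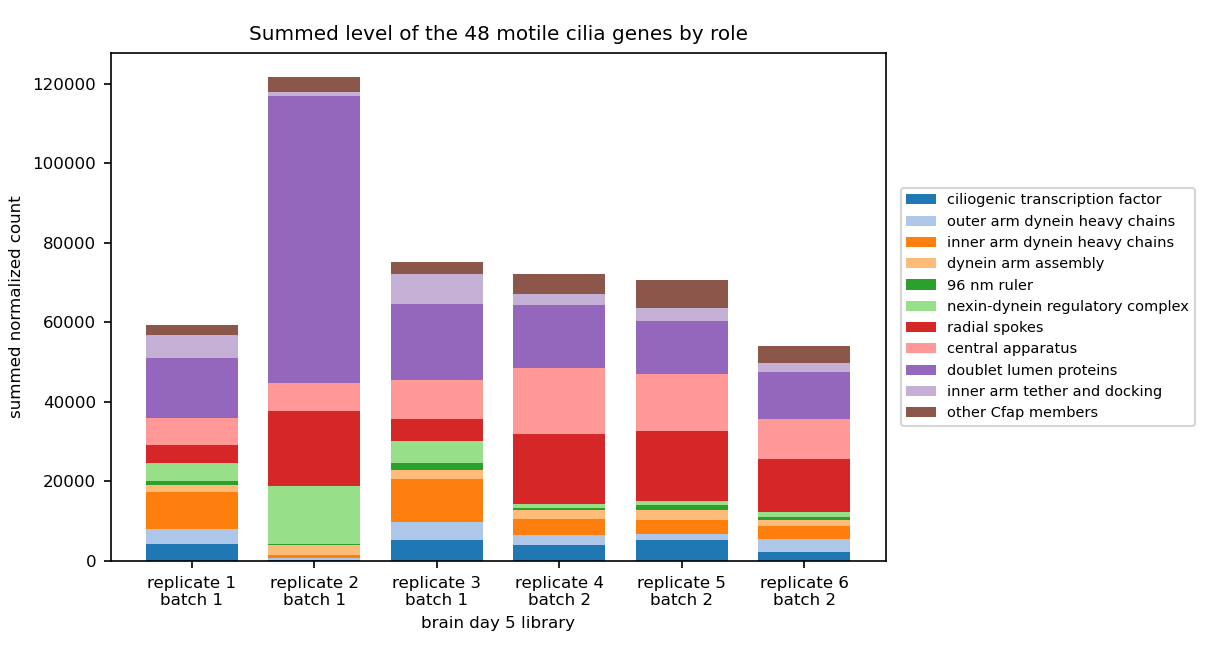
Summed normalized count of the 48 members in each brain library, stacked by role. Replicate 2 is highest at 121700 with 72280 from doublet lumen proteins (11930 to 19070 in the others) and thin heavy chain segments; the other libraries sum to between 54150 and 75260.

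In culture and blood few members were expressed, and the differences were small in number. From culture to blood day 1, 6 of 47 members fell and 1 rose (14% and 18.1% of all genes), so neither count exceeded the background. The log2 difference was -5.86 ± 1.17 for Ccdc40 (limma adjusted p = 0.000456), -4.44 ± 1.03 for Cfap57 (0.00193), -3.88 ± 1.14 for Rsph10b (0.0118), -3.54 ± 1.03 for Rsph9 (0.0109), -3.04 ± 1.11 for Ccdc39 (0.0403) and -1.87 ± 0.52 for Cfap97 (0.00762). The 6 belong to different structures: the ruler pair, a docking factor, 2 spoke genes and Cfap97. Rsph1, with no culture read and up to 92.4 in blood, was the one that rose. Ccdc39 lost its call in 16 and Rsph1 in 12 of 25 alternatives (adjusted p 0.00374 to 0.3 and 0.00158 to 0.192).

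From culture to blood day 5, 5 members fell and 1 rose (11.4% and 19.6% of all genes). The log2 difference was -4.74 ± 1.17 for Ccdc40 (limma adjusted p = 0.00301), -4.06 ± 1.14 for Rsph10b (0.00817), -2.85 ± 1.03 for Rsph9 (0.0378) and -1.29 ± 0.48 for Cfap36 (0.0421). Cfap57 had 0 to 198 in culture and no read in blood day 5 (0.00037). Dnah2 rose by 2.99 ± 0.92 (0.0154), from 0 to 9.03 in culture to 7.46 to 59.4 in blood day 5. Cfap36 and Rsph9 lost their calls in 12 and 11 of 25 alternatives (adjusted p 0.0127 to 0.842 and 0.000902 to 0.26). Both comparisons share the 5 cultures. Rsph10b overlaps Pms2 and Gm42421 on the same strand. Between the blood days limma called no member in either direction (0.0982% and 0.00655% of all genes), edgeR called none, and no member had an unadjusted p under 0.05.

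Lists of other ciliary genes were counted in the same comparisons. Of 52 other tested axoneme genes, 49 rose against blood day 5, 51 against blood day 1 and 46 against culture (33.6%, 37.3% and 37.5% of all genes), and none fell, but 31 of the 52 had passed the filter only with the brain libraries. Of the other 21, 18, 20 and 15 rose, beside 22.5%, 26.8% and 27.5% of genes that passed in the same way. Tppp3 and Tmem212 had the highest means over all libraries. Tppp3 was read in blood too (427 to 2769) and rose by 2.71 ± 0.54 against blood day 5 (limma adjusted p = 0.000207). Tmem212 had 713 to 37773 in brain and at most 4.0 elsewhere. Intraflagellar transport genes, which build primary as well as motile cilia, were counted apart. Of 28, 16 (57.1%) rose against blood day 5, 19 (67.9%) against blood day 1 and 10 (35.7%) against culture, and none fell. The share against culture was near the 37.5% of all genes. Of the 27 that passed the filter without the brain libraries, 15, 18 and 9 rose, beside 22.5%, 26.8% and 27.5% of such genes. The most abundant of them, Ift52 and Ift20, differed from blood day 5 by 0.08 ± 0.25 and 0.47 ± 0.34 (adjusted p = 0.824 and 0.268).

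Regulators of multiciliation were mixed. Of 9 tested, 3 were called higher than in blood day 5 and 1 lower (33.6% and 14.3% of all genes). Those 3, Gmnc, Trp73 and Rfx4, passed the filter only with the brain libraries, so their p-values add no separate support. Of the 6 that passed without the brain libraries, 0 rose and 1 fell against blood day 5, beside 22.5% and 17.1% of such genes. Gmnc, which starts the programme upstream of Foxj1, had 141 to 645 in brain and no read in the 17 other libraries. Trp73, a p53 family factor of the same cascade, rose by 7.51 ± 1.08 against blood day 5 (limma adjusted p = 3.58e-06) and Rfx4 by 6.32 ± 0.92 (4.06e-06). Rfx2 and Rfx3, X-box binding factors, differed from blood day 5 by 1.42 ± 1.17 (0.342) and 0.93 ± 0.97 (0.464) and passed against blood day 1 and culture. Rfx1, Myb and Ccno passed in none of the 3. Cdc20b, which lies at the multiciliation locus, ran opposite: it had 216 to 831 in culture and at most 8.7 in brain, with a difference of -7.74 ± 1.11 to blood day 5 (3.53e-06). Mcidas, at most 5.11 in any library, was too low to be tested.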

How the data were processed

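The deposited table holds a signal, named normalized counts by the authors: each library's read counts were scaled by its own factor. Undoing that scaling gave whole reads, within 0.1 read, for 100% of the values of every library, and the factors equalled median-of-ratios factors over 7556 genes without a zero. Per the submitters' processing notes the tools were fastp and HISAT2 2.0.5 and the build mm10. For the counter, its annotation and strand setting, the sources used here give nothing. No column was left unmapped.

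Here log2(value + 1) was tested with limma 3.58.1 in R 4.3.3 (trend, robust, two-sided; 4 groups and the batch, 23 libraries), with Benjamini-Hochberg adjustment over 15268 genes. edgeR 4.0.16 on recovered reads was an alternative. The calls were also run on simulated counts with the same spread for all genes and no batch or length effect. These data differ in those respects, so no support is drawn from the simulation. Coordinates and exonic lengths are from GENCODE M21, promoters from RefSeq. Values in full are given for the members listed by name in the rule and the 2 most abundant of each role. Members, lists, roles and motifs were chosen with earlier results of these data known. The levels per kb without brain replicate 2 and the counts among genes that passed without the brain libraries were added after seeing the data.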

Additional observations from a re-analysis of the deposited data

Results flagged for a closer look

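Libraries are named here where Dixon's test at the 95% level flagged a value as apart from the others of its group. The members given in full and the summed level were tested. A chance rate of about 1 in 20 groups holds only for normally distributed values, so it is not given for these counts. Where a single library of a group held reads, the test flags it at any value and cannot tell whether that value is unusual. Such cases were Ccdc153 in culture, Ccdc153, Foxj1, Dnah5 and Tekt1 in blood day 5, and Dnah6 and Hydin in blood day 1. Brain replicate 2 was high for Ccdc153 (14649.2), Cfap36 (2551.2), Cfap52 (14812.8), Dnaaf2 (605.0), Tekt1 (41860.0), each with at most 3.39 kb of exon, and for the summed level (121703). In culture Ccdc153 was at 3.4 in replicate 4 and Cfap36 at 2085.4 in replicate 5.

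In blood day 1, replicate 2 stood apart for Rsph9 (476.8) and Spag6l (340.6), and the same library held 30199 normalized counts of the choroid plexus gene Ttr against at most 713 in the other 5. Replicate 6 was apart for Cfap52 (16.5) and Hydin (16.5), and replicate 1 for Dnah6 (13.1). In blood day 5, replicate 6 was apart for Ccdc153 (2.9), Cfap44 (9.7) and Dnah6 (255.2), and replicate 1 for Dnaaf5 (1922.1) and Dnah5 (6.6). Single values of this kind were Foxj1 in replicate 3 (1.6), Tekt1 in replicate 4 (22.6) and Cfap97 in replicate 5 (508.3).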

How the results depend on the processing

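The counts of members higher in brain stayed within 1.5 times under every alternative run. Leaving out 1 library at a time gave 41 to 43 higher against blood day 5, 42 to 44 against blood day 1 and 37 to 40 against culture, with 1 lower each time. Members lower in brain than in blood day 5 numbered 2 with TMM scaling, equal library totals, edgeR on recovered reads or without the 4 libraries standing apart. Against blood day 1 they numbered 2 with TMM, edgeR or without those 4, and 0 in batch 1 alone. Against culture they numbered 3 with TMM, 2 with edgeR and 0 in batch 2 alone. The added members were Dnaaf2 and, against culture, Dnaaf5.

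From culture to blood day 1 the higher count was 0 with a pseudocount of 5, only both groups, the replicate block, the closest libraries averaged (culture replicates 1 to 3, brain replicates 1 and 3) or batch 1 alone, and 2 with edgeR or without the 4 libraries (0 to 2 leaving out 1 library: 0 without any one of culture replicates 1 to 3 or blood day 1 replicates 3 to 5, and 2 without blood day 1 replicate 2). The lower count was 3 with only both groups or batch 1 alone (5 to 7 leaving out 1 library). From culture to blood day 5 the higher count was 4 with edgeR and 2 with only both groups or without the 4 libraries (0 to 3 leaving out 1: 0 without culture replicate 4 or 5, 2 without blood day 5 replicate 3, 4 or 6, and 3 without its replicate 5). The lower count was 3 with equal totals and 8 without the 4 libraries (3 to 6 leaving out 1: 3 without culture replicate 5 or blood day 5 replicate 3 or 4). The batch difference was called for 4 members with a pseudocount of 5 and 2 without brain replicate 2, alternatives chosen after seeing the data. Cfap43 reversed in batch 1 alone: -1.250 against blood day 5, -0.282 against blood day 1 and -0.323 against culture (adjusted p = 0.605, 0.909 and 0.915). The cause of these changes was not tested.

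Same-numbered libraries of different groups had correlations of within-batch deviations from -0.104 to 0.189, with 2 of 33 pairs over 0.1, and 11 of 23 libraries correlated best with their own number, so the numbers are not taken to pair libraries. In batch 1 one read is worth more than in batch 2, so values of a few normalized counts rest on 1 to 3 reads there and absence is least certain in those libraries.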
